A study of Mus musculus with 12 samples.

Results

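The nuclear genes of mitochondrial oxidative phosphorylation were followed in the lungs of db/db mice that breathed either air or O3. Genes were taken by symbol (Ndufa, Ndufb, Ndufs and Ndufv genes, Sdha to Sdhd, and symbols beginning with Uqcr, Cox4 to Cox8 or Atp5), with the probe set of highest mean signal standing for each gene. This gave 88 genes, from 115 probe sets, of 21759 genes measured. They comprised 34 genes of complex I, 4 of complex II, 8 of complex III, 20 of complex IV, 15 of complex V and 4 complex I assembly factors (Ndufaf1 to Ndufaf4). The other 3 (Cox4nb, Atp5s and Atp5sl) match the symbol pattern but are listed in the array annotation as Emc8, Dmac2l and Dmac2. They are kept out of the complexes but are counted among the 88. Ndufa4 and Ndufa4l2 were placed with complex IV, where the Ndufa4 protein is now known to sit.

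All mice were female, on a C57BL/6 background, bought at 6 weeks of age and kept for 4 weeks. Obesity in db/db mice comes from loss of the long leptin receptor. Air-breathing db/db mice with an isotype control antibody had 4 arrays, and O3-exposed db/db mice with that same antibody had 4. O3-exposed db/db mice with anti-IL-17A, which binds the cytokine IL-17A, had 3 arrays (replicates 1, 2 and 4). An O3-exposed wildtype mouse with the isotype antibody had 1 array. O3 was given at 2 ppm for 3 hours, and lungs were studied after 24 hours. The protocol text of the air arrays also names O3, but their titles and exposure labels say air. No wildtype mouse breathing air and no anti-IL-17A mouse breathing air was analysed here, so whether O3 acts differently by genotype or antibody could not be asked. The labels do not say that each array was a separate mouse, so p-values measure the spread between these samples, which may be technical.

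Oxidative phosphorylation passes electrons from NADH (complex I) and succinate (complex II) through complex III to complex IV, which reduces oxygen, and complex V uses the resulting proton gradient to make ATP. Most subunits are encoded in the nucleus, but part of the core of complexes I, III, IV and V is encoded by mitochondrial DNA. Several complex IV subunits exist as a common form and a form restricted to certain tissues, such as heart and skeletal muscle, brown fat, lung or testis. Brown fat cells also carry Ucp1, which lets protons back across the membrane as heat.

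Signals are RMA values in log2 units. Array medians ran from 4.75 to 4.90. Lung identity was apparent in the markers of alveolar type 2 cells, whose mean signal lay between 9.75 and 10.06 on every array. Of the 88 genes, 83 were read by a probe set that matches 1 gene in the array annotation. The probe sets of Cox7c, Ndufa13, Ndufs5 and Uqcrc2 also match another gene or pseudogene. In whole lung, fewer cells of a type and less RNA per cell cannot be told apart. Markers of airway cells had lower values after O3 with the isotype antibody. The mean signal of 15 ciliated cell markers was 7.12 to 7.30 on the db/db air arrays and 5.49 to 6.25 on the 4 isotype O3 arrays. It was 5.47, 7.05 and 5.50 with anti-IL-17A and 6.58 on the wildtype array. For 9 club cell markers the mean was 10.63 to 10.81 in air and 9.98 to 10.20 after O3 with isotype antibody, 10.02, 10.36 and 9.89 with anti-IL-17A and 10.55 on the wildtype array. All 15 and all 9 had a log2 change below 0 for O3 minus air (49.2% of all genes), and 2 (Dnahc9 and Ccdc40) and 3 (Scgb3a2, Cbr2 and Aldh1a1) were called lower (0.46% of all genes). Neutrophil markers, by contrast, spread as widely in air (5.74 to 8.002) as in the whole series. The part of these cells in the differences below was not tested.

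Promoters of 8 genes are shown, each as the 250 bases before the transcription start in RefSeq (GRCm38.p6). Cox6a1 and Cox6b1, common complex IV subunits, Atp5h, Atp5c1 and Atp5l of complex V, and Atp5s are shown for their O3 values. They are the 6 of the 88 genes in which every isotype O3 array lay below every air array, as held for 6.65% of all genes. Cox7a1 and Cox8b, the complex IV isoforms of heart, skeletal muscle and brown fat, are shown for their values on the 3 arrays with high Ucp1. They were the only 2 of the 20 complex IV genes above the mean of the other arrays of their group on each of the 3. Over all complexes this held for 19 of the 88 genes (21.6%, against 16.8% of all genes). Capitals mark exact matches, on either strand, to the NRF-1 motif GCGCATG, the ETS motif CCGGAAG or the ERR motif AAGGTCA, bound by families that are known to act on genes of the respiratory chain.
Cox6a1 (chr5:115348959-115349208, minus strand): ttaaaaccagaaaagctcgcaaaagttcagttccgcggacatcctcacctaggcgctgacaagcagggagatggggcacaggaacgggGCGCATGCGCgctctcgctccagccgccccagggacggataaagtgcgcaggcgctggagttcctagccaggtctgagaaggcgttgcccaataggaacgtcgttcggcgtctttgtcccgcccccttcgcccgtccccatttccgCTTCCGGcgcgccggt
Cox6b1 (chr7:30626115-30626364, minus strand): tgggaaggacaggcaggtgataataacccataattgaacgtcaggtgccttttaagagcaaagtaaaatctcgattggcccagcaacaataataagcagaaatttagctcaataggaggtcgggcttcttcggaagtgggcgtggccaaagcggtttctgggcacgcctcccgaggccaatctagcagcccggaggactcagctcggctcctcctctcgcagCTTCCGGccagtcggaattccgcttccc
Atp5h (chr11:115419920-115420169, minus strand): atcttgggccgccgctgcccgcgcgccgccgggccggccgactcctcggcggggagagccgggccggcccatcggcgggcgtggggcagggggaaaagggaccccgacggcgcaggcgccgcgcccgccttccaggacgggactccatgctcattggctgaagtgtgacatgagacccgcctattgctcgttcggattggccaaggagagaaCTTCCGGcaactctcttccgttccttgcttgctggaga
Atp5c1 (chr2:10080511-10080760, minus strand): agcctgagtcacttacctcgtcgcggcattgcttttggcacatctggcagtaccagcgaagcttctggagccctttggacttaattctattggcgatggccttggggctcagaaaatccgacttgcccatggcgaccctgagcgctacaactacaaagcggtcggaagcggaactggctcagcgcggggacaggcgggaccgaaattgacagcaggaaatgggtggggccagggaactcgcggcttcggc
Atp5l (chr9:44920743-44920992, minus strand): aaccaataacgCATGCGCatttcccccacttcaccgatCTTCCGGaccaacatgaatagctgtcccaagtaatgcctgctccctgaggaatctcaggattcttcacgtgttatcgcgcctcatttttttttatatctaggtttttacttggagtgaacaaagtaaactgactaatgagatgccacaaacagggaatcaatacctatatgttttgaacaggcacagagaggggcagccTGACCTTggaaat
Atp5s (chr12:69724695-69724944, plus strand): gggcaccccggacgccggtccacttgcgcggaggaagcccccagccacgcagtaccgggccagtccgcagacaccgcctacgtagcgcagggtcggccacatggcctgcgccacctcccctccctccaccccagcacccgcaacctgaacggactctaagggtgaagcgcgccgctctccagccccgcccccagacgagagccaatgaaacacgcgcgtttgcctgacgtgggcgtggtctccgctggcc
Cox7a1 (chr7:30183921-30184170, plus strand): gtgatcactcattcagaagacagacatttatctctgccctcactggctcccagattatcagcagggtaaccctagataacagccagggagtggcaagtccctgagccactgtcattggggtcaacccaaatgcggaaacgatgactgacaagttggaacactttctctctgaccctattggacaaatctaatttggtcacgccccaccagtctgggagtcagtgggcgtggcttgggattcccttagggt
Cox8b (chr7:140900447-140900696, minus strand): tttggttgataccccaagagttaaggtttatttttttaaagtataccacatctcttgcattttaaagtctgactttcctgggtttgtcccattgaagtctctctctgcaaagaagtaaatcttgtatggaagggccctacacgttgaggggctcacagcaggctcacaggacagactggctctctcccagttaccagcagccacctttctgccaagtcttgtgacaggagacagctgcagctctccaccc
The Cox6a1 window held an NRF-1 match on each strand, which overlap, and 1 ETS match, and the Cox6b1 and Atp5h windows held 1 ETS match each. The Atp5l window held 1 match to each of the 3 motifs. The windows of Atp5c1 (shown at the first of 2 listed start sites), Atp5s, Cox7a1 and Cox8b held none. The 6 genes with lower O3 arrays thus included some with and some without a match. Of the 88 genes, 72 had a promoter in the table. The NRF-1 motif was in 11 of them (15.3%) against 3.68% of 27025 genes, the ETS motif in 13 (18.1%) against 7.83%, and the ERR motif in 5 (6.94%) against 4.7%. These are matches of letters, not binding sites.

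The mean signal of each complex was set side by side over the groups. For complex I it was 8.11 ± 0.10 (SD, n = 4) in air, 8.13 ± 0.07 (n = 4) after O3 and 8.15 ± 0.19 (n = 3) after O3 with anti-IL-17A, and 8.14 on the wildtype array. For complex V it was 9.48 ± 0.10, 9.43 ± 0.11, 9.51 ± 0.08 and 9.49 in the same order, and for complex III 8.49 ± 0.11, 8.47 ± 0.09, 8.53 ± 0.12 and 8.46. Complex II was at 8.21 ± 0.16, 8.31 ± 0.14, 8.50 ± 0.39 and 8.23, with 8.13, 8.27 and 8.29 in the db/db groups when the arrays of high Ucp1 were left out. The arrays of the db/db groups overlapped in each of these 4. Complex IV was the only complex in which every O3 array of isotype-treated db/db mice lay below every air array. Its mean signal was 8.19, 8.23, 8.37 and 8.15 on the air arrays and 8.12, 8.10, 8.05 and 8.10 on the O3 arrays. The highest air array, replicate 3, is 1 of the 3 with high Ucp1. For complexes I, II, III and V and for the assembly factors the air and O3 arrays overlapped.

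**Figure D1:**
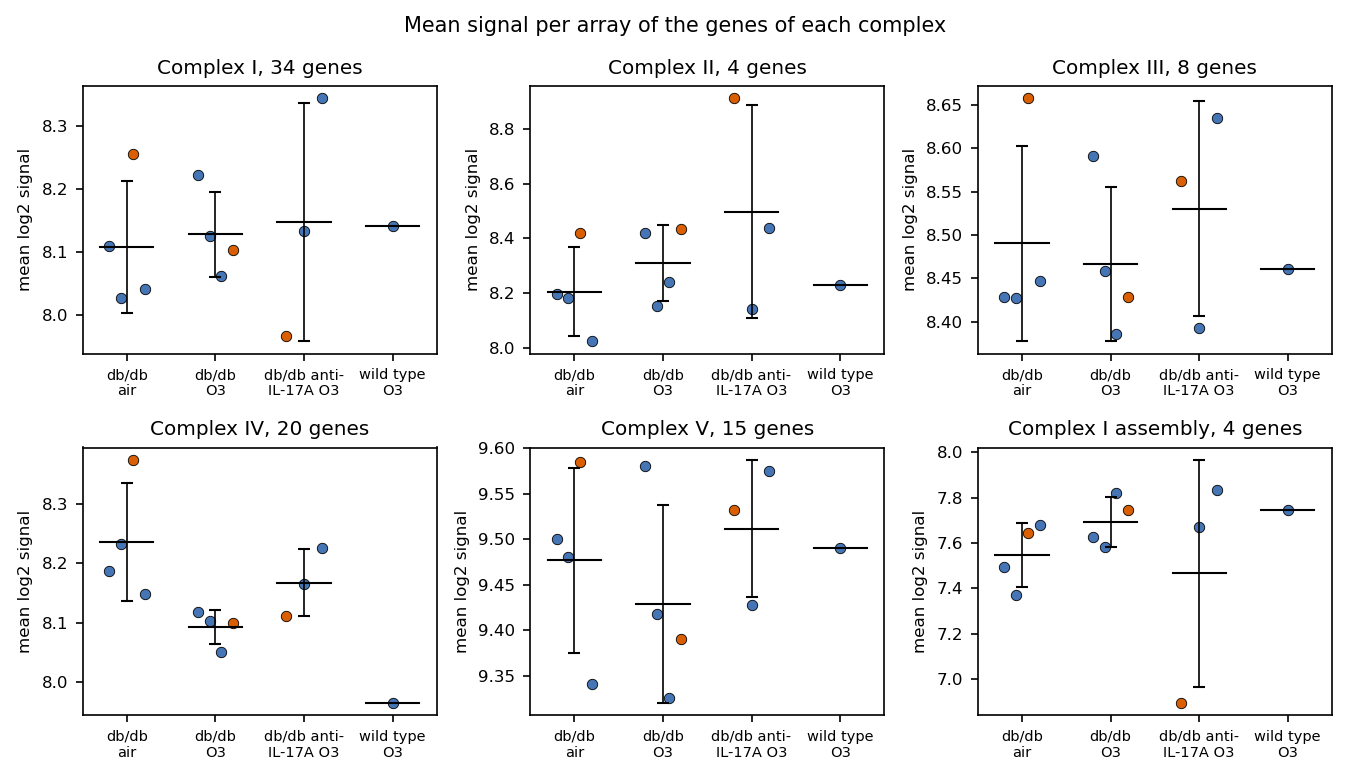
Mean log2 signal of the genes of each complex (vertical axis, its scale differs between panels) on each array, by group (horizontal axis). Points are arrays, orange where the Ucp1 signal is above 9, and lines are the group mean with SD. Complex IV is lower on all 4 isotype-treated db/db O3 arrays (8.05 to 8.12) than on all 4 air arrays (8.15 to 8.37), and lowest on the wildtype array (7.96). On the wildtype array, 6 of the 20 genes lay below all 4 of those O3 arrays and 4 lay above them. The 4 genes below all 11 db/db arrays were tissue-restricted forms.

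The first comparison asked which of these genes changed with O3 in db/db mice that received isotype antibody. None of the 88 passed the test (limma, all 12 arrays, Benjamini-Hochberg adjusted over all genes, adjusted p under 0.05), against 1.06% of all genes, of which 130 (0.597%) were called higher and 100 (0.46%) lower. At an unadjusted p under 0.05, 3 of the 88 were higher (Ndufs8, Sdhc and Ndufaf4) and 7 lower (Cox7a2l, Cox6a1, Ndufb11, Cox6b1, Uqcr10, Atp5h and Atp5s), which is 11.4% against 15.1% of all genes. The median log2 change was -0.04, beside 0.00 over all genes, and 53 of the 88 were below 0 (60.2%, against 49.2% of all genes). Single changes ran from -0.47 to 0.57, with a median standard error of 0.15. Changes of that order could therefore not be told from the spread between arrays for most of these genes.

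Arrays of the groups did not overlap for 9 genes, which is 10.2% of the 88 against 15.4% of all genes. All O3 arrays were above all air arrays for Sdhc, Ndufa12 and Ndufv2 (8.78% of all genes), and below them for Cox6a1, Cox6b1, Atp5h, Atp5c1, Atp5l and Atp5s (6.65% of all genes). Each of the 9 had an exact two-sided permutation p of 0.0286, the smallest that 4 arrays against 4 can give. Groups of 4 without overlap always give this value, so it adds nothing to the lack of overlap by which the 9 were picked. Ndufb11, Atp5h, Atp5c1, Atp5l, Atp5s, Ndufa12 and Ndufv2 are outside the rule for named genes and were chosen after their values were seen.

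**Figure D2:**
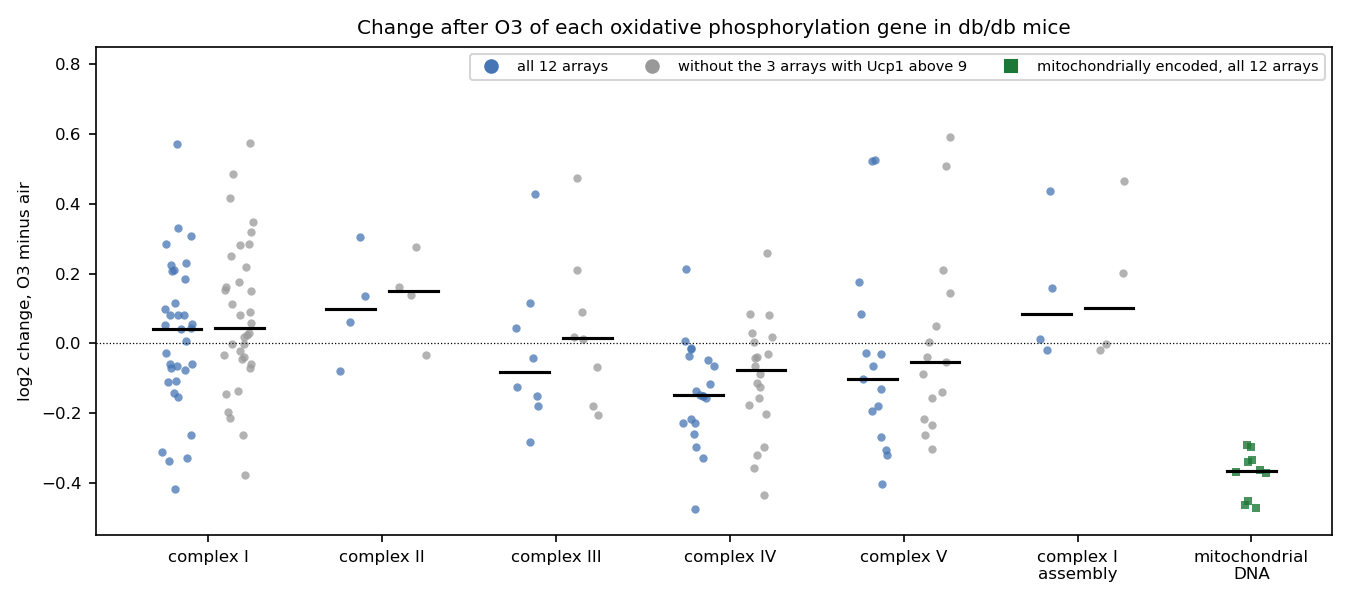
Log2 change after O3 (O3 minus air, vertical axis) of each gene in isotype-treated db/db mice, by complex (horizontal axis), in the fit of all 12 arrays (blue) and without the 3 arrays of high Ucp1 (grey). Lines are medians, and green squares are the 10 subunits encoded by mitochondrial DNA. In the fit of all 12 arrays, 18 of the 20 complex IV genes and all 10 mitochondrially encoded subunits lie below 0, while complex I genes lie on both sides. Without the 3 arrays of high Ucp1, 14 of the 20 complex IV genes lie below 0, with a median of -0.08.

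Of the 34 complex I genes, 19 were above 0 and 15 below, with a median log2 change of 0.04. Ndufs8, an iron-sulfur subunit of the arm that carries electrons, had the smallest adjusted p of the 88. Its signal was 6.41, 6.08, 6.69 and 6.23 in air and 6.93, 6.48, 7.04 and 7.26 after O3. The O3 arrays were the higher ones, but replicate 2 after O3 lay below replicate 3 in air. The change was 0.57 (95% interval 0.18 to 0.96), an adjusted p of 0.152 in limma. Ndufb3, an accessory subunit of the membrane arm, had the lowest value of complex I, at -0.42 ± 0.24 (SE, adjusted p = 0.445), with signals of 7.04 to 7.27 in air and 6.47 to 7.05 after O3. Among core subunits that bind the electron carriers, Ndufs1 was at 0.01 ± 0.14 and Ndufv1, which holds the site of NADH oxidation, at 0.33 ± 0.31. Neither passed the test (adjusted p 0.991 and 0.68). Of the assembly factors, Ndufaf4 had signals of 8.13, 8.15, 8.43 and 8.54 in air and 8.75, 8.52, 8.94 and 8.79 after O3, a change of 0.44 ± 0.16 (adjusted p = 0.229). Ndufaf1 stood at -0.02 ± 0.25.

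Complex II, which is also the succinate dehydrogenase of the tricarboxylic acid cycle, has 4 genes. Sdhc, a membrane anchor, had signals of 8.29, 8.50, 8.51 and 8.28 in air and 8.63, 8.51, 8.77 and 8.89 after O3. The groups did not overlap, though the second O3 array and the third air array both stood at 8.51. The change was 0.30 ± 0.10 (adjusted p = 0.184). The catalytic flavoprotein Sdha was at -0.08 ± 0.15, the iron-sulfur subunit Sdhb at 0.14 ± 0.15 and the second anchor Sdhd at 0.06 ± 0.37. The groups overlapped for all 3.

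Of the 8 complex III genes, 3 were above 0 and 5 below, with a median of -0.08. Uqcrc1, a core protein, had the highest value, 0.43 ± 0.22 (adjusted p = 0.388), with signals of 6.77 to 7.43 in air and 7.22 to 7.72 after O3. Uqcr10, a small subunit, had the lowest, -0.28 ± 0.12 (adjusted p = 0.294), with 8.53 to 8.80 in air and 8.15 to 8.62 after O3. Uqcrfs1, the Rieske iron-sulfur protein, was at 0.12 ± 0.13. The air and O3 arrays overlapped in each of the 3.

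Complex IV, cytochrome c oxidase, had the most one-sided changes, with 18 of 20 genes below 0 (90%, against 49.2% of all genes) and a median of -0.15. No gene of it passed the test, and 3 were lower at an unadjusted p under 0.05 (15% of them, near the 15.1% of all genes). The arrays did not overlap for 2, Cox6a1 and Cox6b1 (10%, against 15.4% of all genes). Cox6a1, the common form of this subunit, had signals of 10.30, 10.35, 10.57 and 10.34 in air and 10.20, 10.22, 10.23 and 10.005 after O3. All O3 arrays were lower, replicate 4 most so. The change was -0.23 ± 0.09 (adjusted p = 0.24). Cox6b1, a subunit on the side of cytochrome c, had 11.25, 11.35, 11.28 and 11.21 in air and 11.11, 11.03, 11.06 and 11.03 after O3. The O3 arrays of Cox6b1 lay close together and below all air arrays, and the change was -0.22 ± 0.09 (adjusted p = 0.288). Cox7a2l, a protein known to join complexes III and IV into supercomplexes, was lower on 2 of the O3 arrays than on the others. Its signals were 9.78, 9.62, 9.84 and 9.38 in air and 9.55, 9.36, 8.91 and 8.90 after O3, a difference of -0.47 ± 0.16 (adjusted p = 0.195). The 2 groups overlapped, since air replicate 4 lay below O3 replicate 1.

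The other common subunits of complex IV gave smaller values. Cox4i1 was at -0.14 ± 0.20, Cox7a2 at -0.12 ± 0.17, Cox7b at -0.15 ± 0.15, Cox8a at -0.02 ± 0.14 and Ndufa4 at -0.16 ± 0.13. Cox5a, a subunit on the matrix side, was 1 of the 2 genes above 0, at 0.21 ± 0.12 (adjusted p = 0.458). The other was Cox4i2, the lung form of subunit 4, at 0.01 ± 0.16. The testis forms Cox6b2, Cox7b2 and Cox8c were at -0.15 ± 0.24, -0.05 ± 0.09 and -0.04 ± 0.08. Cox7b2 and Cox8c had signals below the median of all probe sets on every array (2.80 to 3.13 and 3.31 to 3.58).

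Complex V had 11 of 15 genes below 0 and a median of -0.10. Atp5h, a subunit of the peripheral stalk, had signals of 9.93, 9.93, 9.94 and 9.79 in air and 9.63, 9.67, 9.56 and 9.44 after O3. All O3 arrays were lower, and the difference of the means was larger than the range within either group. The change was -0.32 ± 0.14 (adjusted p = 0.302 with all 12 arrays). In a fit of the 2 groups alone it was called lower, -0.32 ± 0.08 (adjusted p = 0.0382), as 1 of the 88 against 7.84% of all genes. It was also called (adjusted p = 0.0443) when anti-IL-17A replicate 1, which is in neither group but enters the shared estimate of spread, was left out, in an alternative added after seeing the data. In that fit 3.83% of all genes were called. Atp5c1, the rotating gamma subunit, was at -0.27 ± 0.12 and Atp5l at -0.31 ± 0.23, with no overlap of the arrays in either. The catalytic subunits Atp5a1 and Atp5b were at 0.18 ± 0.18 and -0.03 ± 0.11. The highest and lowest values were Atp5g1, a c-ring subunit, at 0.53 ± 0.33 (adjusted p = 0.503), and Atp5e, the epsilon subunit, at -0.40 ± 0.23 (adjusted p = 0.446).

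Subunits encoded by mitochondrial DNA all gave lower values after O3. Of 13 such subunits listed, 10 were measured, and the others were not analysed here. All 10 had a log2 change below 0 (49.2% of all genes), from -0.47 to -0.29 with a median of -0.37, and 9 had an unadjusted p under 0.05 (15.1% of all genes). None passed the adjusted test, the smallest adjusted p being 0.146. The mean signal of the 10 was 11.12, 11.32, 11.28 and 11.42 in air and 10.79, 11.17, 11.01 and 10.66 after O3. O3 replicates 1 and 4 were the lowest, while O3 replicate 2 lay above air replicate 1. ND5, a proton-pumping subunit of complex I, had signals of 11.70, 11.85, 11.76 and 11.90 in air and 11.39, 11.68, 11.52 and 11.26 after O3. Every O3 array of ND5 was lower, and the change was -0.34 ± 0.10. CYTB, the core of complex III, was at -0.37 ± 0.13, and COX1, the catalytic core of complex IV, at -0.30 ± 0.13, both with overlapping arrays. The arrays did not overlap for ND3, ND4L, ND5 and COX2, 4 of the 10 (15.4% of all genes). The probe sets of COX2 and ATP6 also match another gene, and the other 8 are not listed in the array annotation. These RNAs come mostly from long shared transcripts, so the 10 are not separate observations.

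**Figure D3:**
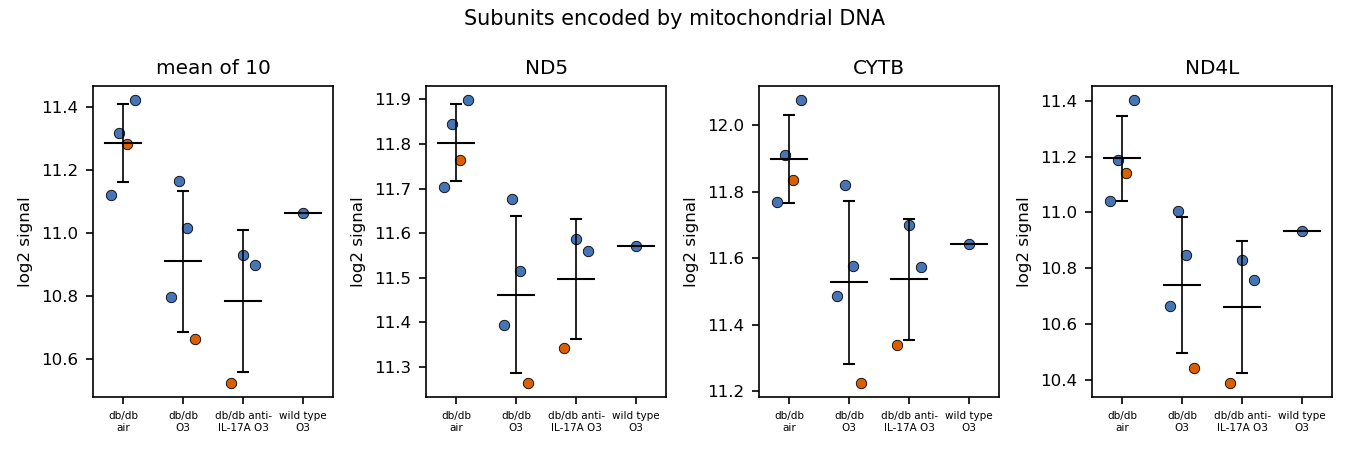
Log2 signal of subunits encoded by mitochondrial DNA (vertical axis, its scale differs between panels) on each array, by group (horizontal axis), as the mean of 10 subunits and for ND5, CYTB and ND4L. Points are arrays, orange where the Ucp1 signal is above 9, and lines are the group mean with SD. For ND5 and ND4L all 4 isotype-treated db/db O3 arrays lie below all 4 air arrays, and for the mean of 10 1 O3 array (11.17) lies above the lowest air array (11.12).

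Ucp1 was high on 3 arrays, 1 in each db/db group. It stood at 10.12 on air replicate 3, 10.20 on O3 replicate 4 and 10.53 on anti-IL-17A replicate 1, and at most at 5.08 on the other 9. Of 12 brown adipocyte markers, 5 had these 3 arrays as their top 3, 1 of them Ucp1 itself, by which the arrays were picked, as had 12 of 15 adipocyte markers and 6 of 19 cardiac and striated muscle markers. The mean signal of the adipocyte markers was 7.77, 7.28 and 7.66 on the 3 arrays and 6.19 to 6.86 on the others. That of the muscle markers was 7.99, 8.18 and 7.43, against 6.52 to 7.22. Of the 88 genes, 3 had these arrays as their top 3 (Cox8b, Ndufab1 and Sdha), which is 3.41% against 1.77% of all genes. Cox8b stood at 8.42, 8.45 and 8.66 on them and at 6.35 to 7.44 elsewhere. Cox7a1 was high on 2 of the arrays, at 7.66 in air and 7.01 after O3, but at 6.52 on anti-IL-17A replicate 1, below the 6.55 of air replicate 2. Cox6a2, also a muscle form, stood at 7.84, 8.04 and 8.61, with other arrays at 7.27 to 8.11. The complexes differed in their level on these arrays. Complex II was highest of its group on each of them, at 8.42 in air, 8.43 after O3 and 8.91 with anti-IL-17A. Of its 4 genes, 3 (Sdha, Sdhb and Sdhd) were above the mean of the others of their group on all 3 arrays, as were 16.8% of all genes. Air replicate 3 was highest of the air arrays for complexes I to V, and above the mean of the other air arrays by a median of 0.14 over the 88 genes, whereas for O3 replicate 4 that median was -0.04. The part of other tissue in these differences was not tested.

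**Figure D4:**
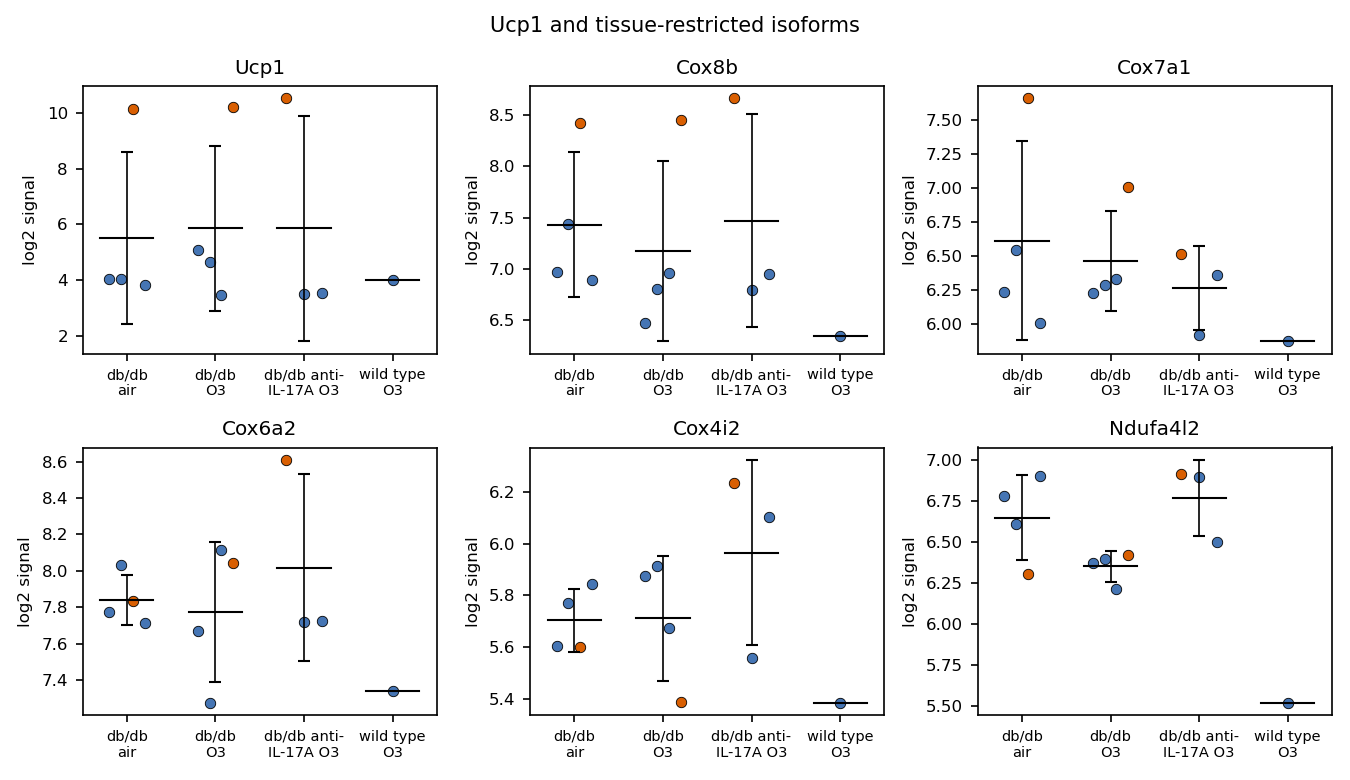
Log2 signal (vertical axis, its scale differs between panels) of Ucp1 and of 5 tissue-restricted forms on each array, by group (horizontal axis). Points are arrays, orange where the Ucp1 signal is above 9, and lines are the group mean with SD. Cox8b is at 8.42 to 8.66 on the 3 orange arrays and at 7.44 or below on the others, whereas Ndufa4l2 and Cox4i2 do not separate them.

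With those 3 arrays left out, 3 air arrays were compared with 3 O3 arrays. Again none of the 88 was called, against 0.0046% of all genes, and 13 had an unadjusted p under 0.05 (14.8%, against 18.6% of all genes). The median over the 88 was 0.00, with 44 of 88 below 0 (50.3% of all genes), and arrays of the groups did not overlap for 21 (23.9%, against 26.8% of all genes). In a fit of these 6 arrays alone 0 of the 88 were called, against 4.15% of all genes. In complex IV, 14 of 20 were below 0 and the median was -0.08. In complex V the median was -0.05. The value of Ndufs8 was 0.57 as before, that of Atp5h was -0.26 ± 0.08 (adjusted p = 0.167) and that of Cox6b1 -0.20 ± 0.08 (adjusted p = 0.232). Cox6a1 was smaller at -0.11 ± 0.07, and Cox7a2l at -0.32 ± 0.18. Ndufa4l2, a relative of Ndufa4 known to be induced by low oxygen, was at -0.30 ± 0.14 with all arrays and at -0.44 ± 0.13 without them (adjusted p 0.353 and 0.159). Its signals on the kept arrays were 6.78, 6.61 and 6.90 in air and 6.37, 6.40 and 6.21 after O3, without overlap, while air replicate 3 stood at 6.30. The mitochondrially encoded subunits had a median of -0.29, all 10 below 0.

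The second comparison asked what anti-IL-17A changed in db/db mice exposed to O3. It shares the isotype O3 arrays with the first. None of the 88 genes was called, and none of all 21759 genes (0%), with a smallest adjusted p of 0.833 in limma. At an unadjusted p under 0.05, 6 of the 88 were higher with anti-IL-17A and 1 lower (7.95%, against 4.6% of all genes). The median log2 difference was 0.06 beside 0.04 over all genes, with 31 of the 88 below 0 (35.2%, against 41.6% of all genes). Arrays did not overlap for 7 genes (7.95%, against 4.05% of all genes), Cox8a, Ndufa3, Ndufa4l2, Uqcr10, Ndufv3 and Ndufb11 being higher (2.63% of all genes) and Ndufv2 lower (1.42%). Of these, Ndufa3, Ndufv3, Ndufb11 and Ndufv2 were named after their values were seen.

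Cox8a, the common form of subunit 8, had signals of 9.82, 9.13 and 9.23 with anti-IL-17A and 8.99, 8.99, 8.86 and 8.86 with the isotype antibody. All 3 were higher, replicate 1 by far the most. The difference was 0.47 ± 0.15 in all arrays and 0.25 ± 0.10 without anti-IL-17A replicate 1. Ndufa4l2 had 6.91, 6.89 and 6.50 against 6.37, 6.40, 6.21 and 6.42. The difference was 0.42 ± 0.15, and 0.37 ± 0.15 without the 3 arrays of high Ucp1. For Uqcr10 it was 0.34 ± 0.13, with 8.85, 8.65 and 8.77 against 8.60, 8.62, 8.15 and 8.28. The exact permutation p was 0.0286 for Cox8a and Ndufa4l2 and 0.114 for Uqcr10, where 3 arrays against 4 cannot go below 0.0286. In the first comparison the values of these 3 were -0.02, -0.30 and -0.28.

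Anti-IL-17A replicate 1 stood apart from the other arrays in these genes as in the rest. It was the highest or lowest of the 12 arrays in 57 of the 88 (24 highest and 33 lowest), as it was in 53.1% of all genes, while no other array was so in more than 18, the number on O3 replicate 4 (20.3% of all genes) and air replicate 3 (12.5%). The fewest were 2, on O3 replicate 1 (9.7% of all genes). It lay over 0.5 from the median of the 12 arrays in 41 of the 88, against 32.6% of all genes. Its mean correlation with the other arrays was 0.947, beside 0.973 to 0.982 for the rest. Complex II was high and the assembly factors were low on it. The mean signal of complex II was 8.91 (8.02 to 8.44 on the others), and that of the assembly factors 6.89 (7.37 to 7.83 on the others). Atp5d, the delta subunit of complex V, stood at 9.85 on it and at 7.19 to 8.60 elsewhere. Sdhd stood at 8.86 against 6.60 to 7.48, and Ndufa1, a small complex I subunit, at 5.04 against 6.93 to 7.81. With this array left out, 26 of the 88 were below 0 in the second comparison (29.5%, against 49.2% of all genes) and the median was 0.09, beside 0.00 over all genes. None was called, and 6 had an unadjusted p under 0.05 (6.82%, against 2.9% of all genes).

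**Figure D5:**
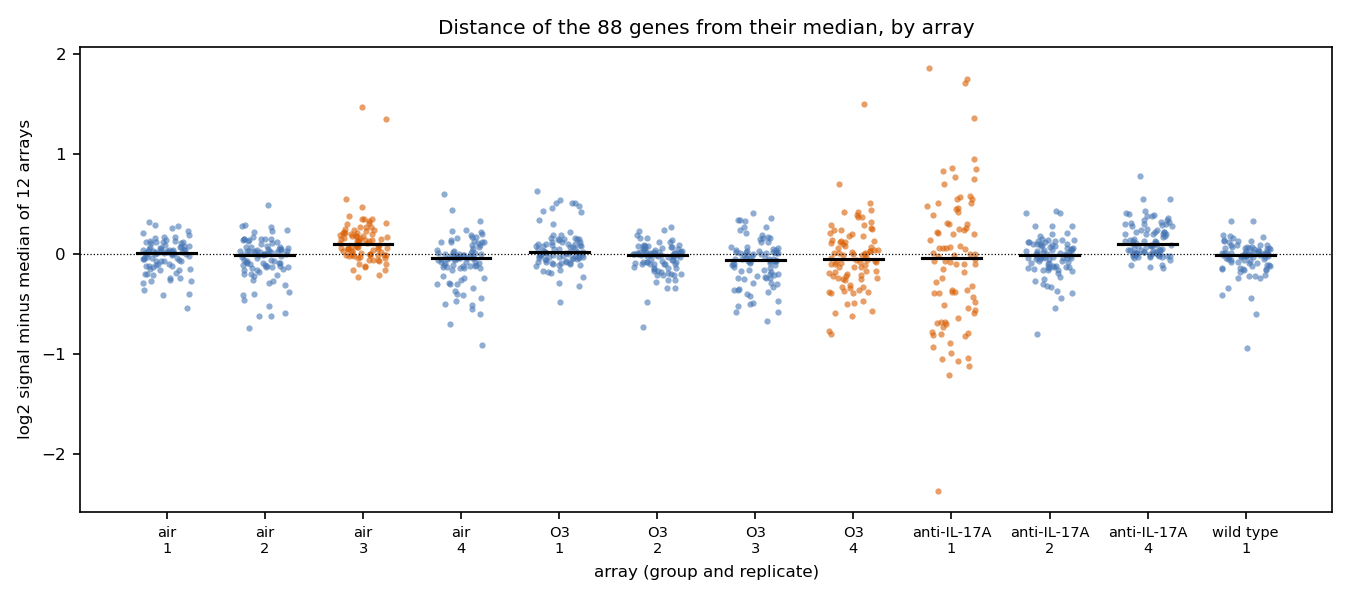
Log2 signal of each of the 88 genes minus its median over the 12 arrays (vertical axis) on each array (horizontal axis, group and replicate), with all db/db groups and the wildtype array. Points are genes, orange on arrays where the Ucp1 signal is above 9, and lines are medians over the 88. Anti-IL-17A replicate 1 has 41 genes more than 0.5 from the median, and no other array has more than 9.

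The wildtype O3 array has no replicate, so its values are set beside the 4 isotype-treated db/db O3 arrays without a test. It was below all 4 db/db isotype O3 arrays in 16 of the 88 genes (22.1% of all genes) and above them in 14 (17.7% of all genes). It was below all 11 db/db arrays in 5 (7.82% of all genes) and above all of them in 0 (4.43% of all genes). The 5 were Cox4i2, Cox7a1, Cox8b, Ndufa4l2 and Ndufv3, of which 4 are tissue-restricted forms placed with complex IV. Ndufa4l2 had the lowest value relative to the mean of those 4, 5.52 against 6.21 to 6.42. Cox8b stood at 6.35 against 6.47 to 8.45 and Cox7a1 at 5.87 against 6.23 to 7.01. For Cox4i2 the gap was small, 5.38 against 5.39 to 5.91. In complex II, Sdhb and Sdhc were below those 4 arrays, at 7.46 and 8.50, though not below all anti-IL-17A arrays.

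Genes around the respiratory chain were described in the same way. Of 4 further carriers and subunits, none was called in limma. Ndufc2 of complex I was at -0.48 ± 0.20 with all O3 arrays lower (adjusted p = 0.285). Cyc1, the cytochrome of complex III, was at 0.45 ± 0.16 with overlapping arrays (adjusted p = 0.219). Ndufc1 was at -0.16 ± 0.14 and Cycs at 0.04 ± 0.19. Of 39 further assembly factors, none was called, 24 were above 0 and 15 below, and 8 were higher and 1 lower at an unadjusted p under 0.05 (23.1%, against 15.1% of all genes). Examples were Cox18, which inserts a mitochondrially made subunit of complex IV (0.58 ± 0.16, adjusted p = 0.109), Cox10, which acts in making the heme of that complex (0.58 ± 0.23), and Cox17, a copper chaperone for it (-0.58 ± 0.32, adjusted p = 0.443). Of 17 enzymes of the tricarboxylic acid cycle, none was called, 2 were below 0 (11.8%, against 49.2% of all genes) and the median was 0.14. The 3 arrays of high Ucp1 were the top 3 for 9 of these 17 (1.77% of all genes). The mean signal of the 17 was 9.31 on each of the 3 arrays and 8.68 to 9.05 on the others. Of 18 regulators of mitochondrial biogenesis, none was called, 9 were below 0 and the median was 0.00. Gabpb1, a GABP subunit, was at 0.39 ± 0.12, Pprc1, a PGC-1 relative, at 0.75 ± 0.24 and Esrrg, a nuclear receptor of the ERR family, at -0.72 ± 0.25 (adjusted p 0.134, 0.161 and 0.202). Of 7 uncoupling proteins and nucleotide carriers, none was called and the median was 0.12. Of 19 genes of glycolysis and low oxygen, none was called. In all, 18 were above 0 and 1 below (5.26%, against 49.2% of all genes), with a median of 0.35. The mean signal of the 19 was 7.74, 7.60, 8.12 and 7.56 in air and 8.21, 7.87, 8.09 and 8.40 after O3. The air and O3 arrays thus overlapped in this mean. In each db/db group it was highest on the array of high Ucp1, at 8.71 with anti-IL-17A. Arrays did not overlap for 3 of the 19 genes, which at 15.8% is near the 15.4% of all genes. Pgk1 (0.61 ± 0.19) and Pkm2 (0.73 ± 0.24) were among these, both with all O3 arrays higher.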

How the data were processed

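Lung RNA was measured on 12 Affymetrix mouse gene arrays. The authors deposited RMA signals on the log2 scale (background correction, quantile normalization and summary of each of 35556 probe sets), made with oligo and RMA, and statistics from limma, for which no versions are given. The authors' own comparison (a log2 fold change, a mean, p-values, adjusted p-values and t and B scores, deposited beside the signals) was not used. Both deposited tables hold the same signals. Symbols stood on 25254 probe sets, and the probe set of highest mean over the 12 arrays was kept for each of 21759 genes, with no filter on dim signals.

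The test was limma 3.58.1 in R 4.3.3 (lmFit and eBayes, 1 mean per group, with 8 residual degrees of freedom; the tests were two-sided and adjusted by Benjamini-Hochberg over all genes, with a call at an adjusted p under 0.05). Single values were compared by an exact permutation test over the 70 splits of 8 arrays, or over the splits of 3 against 4 arrays. The number of arrays limits the precision. The procedure was tested on simulated data. The members and lists were chosen with earlier results of these data known. The members named were those called, the highest and lowest change of each complex, the tissue-restricted isoforms and their common counterparts, the core subunits, and the 5 members of widest spread, with others where said, and 1 item is not reported here. No set was tested. Sequences are from RefSeq (GRCm38.p6), read 250 bases before the start, with genes of several start sites counted once for a motif at any. Alternatives took the second table, renormalized the signals by quantiles, centred each array on its median, or dropped the dimmest 40% of genes, which left 85 of the 88. Others averaged the probe sets of a gene, preferred probe sets of 1 gene, weighted arrays, or let the variance follow the signal with a robust prior. Others fitted 2 groups alone, blocked on replicate number, left out the arrays with Ucp1 above 9, called at 0.1, or left out each array in turn.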

Additional observations from a re-analysis of the deposited data

Results flagged for a closer look

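In a group of 4 arrays, a value was marked where the highest or lowest array was far from the other 3 for the range of the group. This held in 7 of 110 groups tested (6.36%), where chance gives about 1 in 20. Ucp1 on air replicate 3 was 10.12, with the other air arrays at 3.82 to 4.03. On the same array the mean signal of complex III was 8.66, with the others at 8.43 to 8.45. Cox8c on air replicate 2 was 3.55 (others 3.40 to 3.41), and Cox4i1 on air replicate 4 was 8.89 (others 9.43 to 9.54). After O3, Cox7a1 on replicate 4, also an array of high Ucp1, was 7.01 (others 6.23 to 6.33), and Cox6a1 on the same array was 10.005 (others 10.20 to 10.23). Cox7b on O3 replicate 3 was 9.88 (others 10.09 to 10.12).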

How the results depend on the processing

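For O3 minus air, 0 of the 88 genes were called with all 12 arrays, 6 with array weights, whose estimates did not converge (Ndufaf4, Ndufs8 and Sdhc higher, Atp5h, Cox7a2l and Ndufb3 lower, beside 11.4% of all genes), 1 (Atp5h) in a fit of the 2 groups alone, and 1 (Atp5h) without anti-IL-17A replicate 1, chosen after seeing the data. In the other alternatives 0 were called, each air or O3 array left out in turn included, and anti-IL-17A minus isotype gave 0 in all. Genes whose arrays did not overlap numbered 9, 21 without the arrays of Ucp1 above 9, in either fit, 6 to 10 under other processing and 10 to 19 with 1 air or O3 array left out, where fewer arrays overlap less often by construction. The wildtype array lay below the isotype db/db O3 arrays in 16 genes, and in 16 to 26 with 1 of those left out. The median over the 88, -0.04 with all arrays, was 0.0082 without air replicate 3 and 0.0008 without the arrays of Ucp1 above 9. The complex IV median lay between -0.18 and -0.08 and the mitochondrially encoded median between -0.45 and -0.27 over all alternatives. The replicate number as a block called 0 of the 88 and 170 genes higher and 68 lower of all (71.4% higher, beside 56.5%). Deviations of same-numbered arrays correlated at 0.108, 0.289, -0.198 and -0.406 for O3 and air (replicates 1 to 4) and at 0.429, 0.446 and -0.134 for anti-IL-17A and isotype (replicates 1, 2 and 4). They were not above 0.1 for every pair, and the main fit did not treat the arrays as paired. With so few arrays in a group, these correlations cannot decide whether the numbers pair the arrays. All-gene calls moved from 130 higher and 100 lower to 78 and 78 with quantile normalization, 14 and 15 with medians subtracted, 1560 and 928 with array weights, 383 and 277 at an adjusted p under 0.1, 1063 and 643 in the 2 groups alone, 0 and 1 without the arrays of Ucp1 above 9 (479 and 423 in the 2 groups alone), 495 and 339 without anti-IL-17A replicate 1, and at most 11 and 3 with an air or O3 array left out. With the trended variance they were 115 and 115 (50% higher). Of 37 named genes, 13 changed sign for O3 and 22 for anti-IL-17A under some alternative, without passing the test.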
